A study of Mus musculus with 4 samples.

Results

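The stress-keratin spots of mouse facial skin were the spots of 2 Visium sections that gave the largest share of their transcripts to the keratin genes Krt6a, Krt6b and Krt16. A Visium spot is a small barcoded area under a tissue section, often covering more than 1 cell and more than 1 cell type, and each captured transcript is counted once through a unique molecular identifier (UMI). Among spots with at least 1000 UMIs, the 80 with the highest share were taken from each section. This gave 160 members among 1749 such facial spots, and among 3530 tissue spots over all 4 sections of the series. They were taken from 653 spots in the section labelled unwounded and from 1096 in the section from postoperative day 4. Krt6a and Krt6b (type II) and Krt16 (type I) encode filament proteins of keratinocytes. In textbook accounts of skin they are scarce in resting epidermis between follicles, present in parts of the hair follicle and in footpad and oral epithelium, and induced in the epidermis at a wound edge or in inflamed skin, where S100a8, S100a9 and small proline-rich genes are often induced with them.

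The 4 sections came from wildtype mice and were flash-frozen. They cover facial skin and oral mucosa, each without a wound and at day 4 after surgery, with 1 section in each group. The 2 facial sections are compared here, and with 1 section a side no test was possible. The labels give neither age, sex or strain nor the size or place of the wound. Values are CPM, that is a gene's UMIs summed over the spots of a group, divided by the group's total and multiplied by 1000000. The 95% intervals are exact Poisson intervals. They cover counting error only, and say nothing of animals or wounds. To be counted as higher or lower, a gene needed a CPM ratio of 1.5-fold or more and separate intervals, among genes with at least 20 UMIs over both sums. The members held 1537070 UMIs in the section labelled unwounded and 1287865 at day 4. Per spot this was 1045 in the lowest, 18495 in the median and 95435 in the highest, and 1842, 12426 and 56434 at day 4. The other spots had medians of 16292 and 5224 UMIs. Mitochondrial transcripts made up 2.61% and 2.69% of the members' UMIs. The 2 facial sections share 116 spot barcodes, none of which belongs to a member in both.

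2 features of the sections bear on every comparison of day 4 with the section labelled unwounded. That section carried high levels of inflammatory transcripts (S100a8 at 1993 CPM outside the members, against 57.2 CPM at day 4), which goes against its label. It is called the section labelled unwounded throughout. Whether the labels of the 2 facial sections were exchanged was not tested, and an exchange would turn every direction between them given here. The sections also differed in sex-linked transcripts. The members of the section labelled unwounded held 95 UMIs of Eif2s3y and 62 of Ddx3y, both Y-linked, and none of Xist, while those at day 4 held 89 UMIs of Xist and none of Ddx3y or Eif2s3y. The wound, the sex difference and the section cannot be told apart.

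By construction the 3 keratins stood high in the members, so the following levels only describe the selection. Their summed share was 1.53% of a spot's UMIs in the lowest member, 2.14% in the median and 4.40% in the highest of the section labelled unwounded, and 1.01%, 1.61% and 4.14% at day 4. The other spots had medians of 0.436% and 0.0848%. The ranking had no gap at its limit. The last member and the next spot stood at 1.526% and 1.522% in the section labelled unwounded and at 1.011% and 1.005% at day 4. The members held 40.6% of all Krt6a, Krt6b and Krt16 UMIs of the section labelled unwounded and 54.1% at day 4, on 12.9% and 13.0% of all UMIs.

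Krt16 (ENSMUSG00000053797, chr11:100246091-100248902) was the most counted of the 3 in both sections. Its level over the members was 11858 CPM (11686 to 12031) in the section labelled unwounded and 7652 CPM (7502 to 7805) at day 4. Single members gave 5136 CPM in the lowest spot, 9978 in the median and 24885 in the highest in the first section, and 4486 CPM in the lowest spot, 7544 in the median and 20199 in the highest in the second. Krt6a (ENSMUSG00000058354, chr15:101689928-101694305) stood at 6946 CPM (6815 to 7079) and 4449 CPM (4335 to 4566). Its single members gave 2144 CPM in the lowest spot, 6148 in the median and 15820.5 in the highest, and at day 4 they gave 0 CPM in the lowest spot, 3613 in the median and 12245 in the highest. Krt6b (ENSMUSG00000023041, chr15:101676023-101680293), the neighbour of Krt6a and nearly identical to it in sequence, stood at 5881 CPM (5760.1 to 6003) and 4607 CPM (4490.4 to 4726). How reads that fit both copies were counted is not given in the sources used here, so the split between Krt6a and Krt6b is uncertain. The spot levels of each keratin overlapped widely between the sections. By the summed counts Krt6a (log2 ratio -0.64, -0.69 to -0.60) and Krt16 (-0.63, -0.67 to -0.60) were lower at day 4 and Krt6b (-0.35, -0.40 to -0.30) was within the limits, but these calls rested on single pieces of tissue. The log2 ratio of Krt6a (10 CPM added) was -0.06 with the smaller piece alone standing for the section labelled unwounded, and -0.34 with the smaller piece alone standing for day 4. That of Krt16 was -0.44 with the latter and -0.56 with the larger piece of the section labelled unwounded alone, both within the limits. All coordinates are in GRCm38.p6, the assembly also known as mm10.

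**Figure D1:**
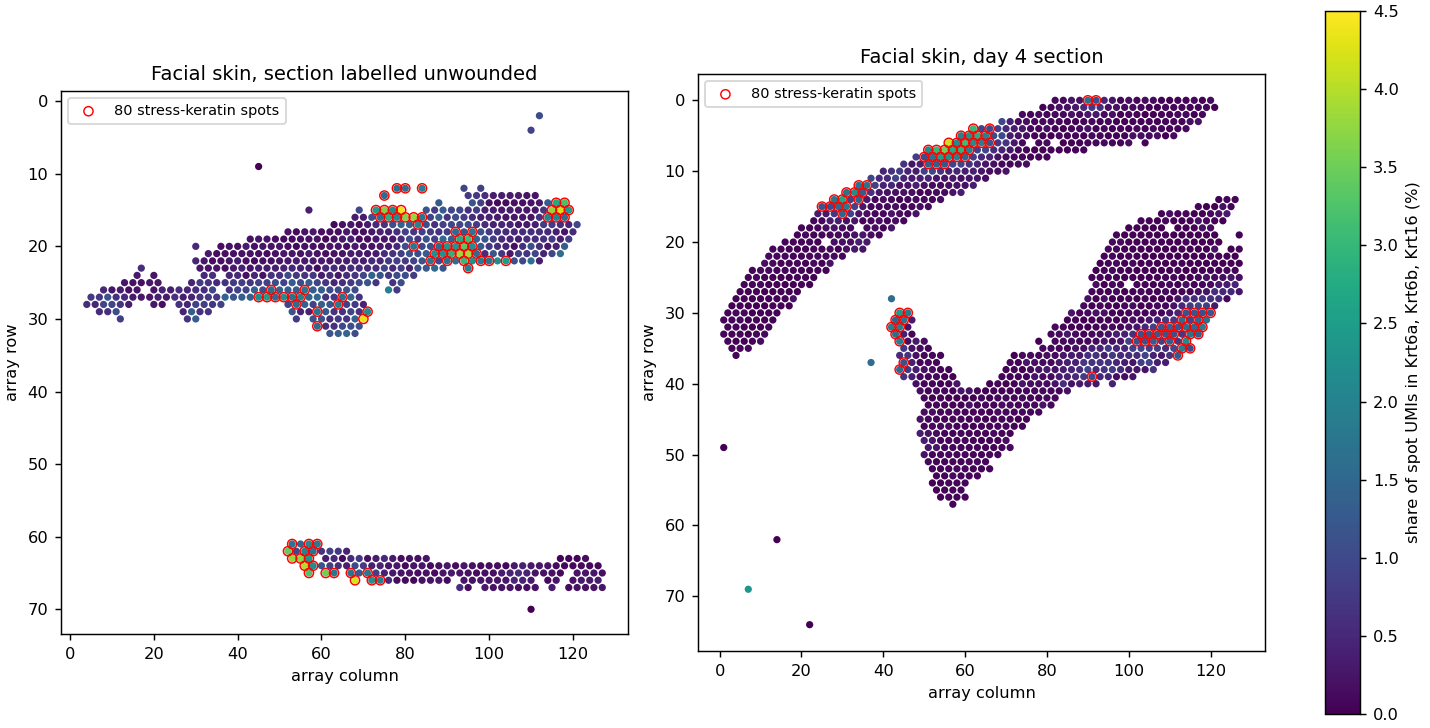
Position of every tissue spot on the array in the 2 facial sections (axes, array column and row), coloured by the share of the spot's UMIs in Krt6a, Krt6b and Krt16 in percent, with the 80 members of each section ringed in red. The members form 17 patches in the section labelled unwounded and 7 at day 4, on both large tissue pieces of each section.

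Position was not used in the selection. The members were clustered in space. In the section labelled unwounded they formed 17 patches of adjoining spots, of which 5 held at least 8 spots (21, 12, 11, 9 and 8) and 6 were single spots. At day 4 they formed 7 patches, of which 4 held at least 8 (27, 27, 13 and 8). Of the spots next to a member, 54.8% were members themselves in the first section and 64.9% in the second, while members made up 11.9% and 7.01% of the tissue spots. Each section holds 2 large separate pieces of tissue, and both carried members. In the section labelled unwounded 57 members lay on the larger piece (519 spots), 19 on the smaller (142 spots) and the rest on scraps beside them. At day 4 there were 38 on the larger (651 spots) and 42 on the smaller (483 spots).

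A spot with fewer than 6 tissue neighbours was taken as lying at the tissue edge. Of the members, 46 of 80 lay at the edge in the section labelled unwounded (57.5%, exact binomial 95% interval 45.9 to 68.5) and 36 of 80 at day 4 (45.0%, 33.8 to 56.5). The share among all other spots was 38.7% (34.7 to 42.9) and 30.0% (27.2 to 32.9). It was 26.2% (17.0 to 37.3) and 17.5% (9.91 to 27.6) among the 80 other epidermal spots of each section, which are the non-member spots with the largest share of Krt5, Krt14, Krt1 and Krt10. At day 4 the members' share moved with their number, from 60% for the 40 highest spots to 31.2% for the 160 highest. These intervals treat neighbouring spots as independent, which they are not.

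Epidermal keratins other than the rule genes were abundant in the members. Krt14, the basal keratin, stood at 16380.5 and 18249 CPM in members against 7749 and 6000.2 CPM in the other spots, and Krt1, the suprabasal partner of Krt10, at 10953 and 20237 against 6463 and 12086 CPM. On the larger pieces Krt10 stood at 5874 and 18850 CPM in members against 6216 and 15953.5 CPM in the other spots. The other epidermal spots there, chosen partly on Krt10, stood at 14918 and 28262 CPM. On the smaller pieces Krt10 stood at 5253 and 9316 CPM in members against 2938 and 6667 CPM in the other spots. Of 12 spinous and granular markers 6 were higher in members and none lower in the section labelled unwounded, and 4 and 2 at day 4. The basal markers did not all follow Krt14. Of 12, 2 were higher and 2 lower in members than in the other spots of the section labelled unwounded, and 5 and 2 at day 4. Of all genes, 4.01% and 2.28% were higher and 19.5% and 17.6% lower. Krt15, another keratin of basal cells, was lower in members (271 against 689.9 CPM, and 723 against 1434 CPM at day 4). Hair shaft and matrix markers were scarce in members and in the other spots alike. They summed to 70.3 and 67.3 CPM in the section labelled unwounded, and to 71.4 and 107 CPM at day 4. Of 5 measured in the first section 1 was higher in members and 2 lower, and of 6 at day 4 none and 1. The hair shaft keratins Krt31, Krt33a, Krt33b, Krt34, Krt81, Krt83 and Krt86, 7 of the 13 hair shaft and matrix markers in the files, had no UMI in the members of either section. Of 11 measured companion layer and outer root sheath markers, 8 were lower in members than in the other spots of the section labelled unwounded and 6 at day 4, where 19.5% and 17.6% of all genes were lower. Krt17, which these layers share with wounded epidermis, stood at 1784 and 1095 CPM in members against 1218 and 642 CPM in the other spots. Of the 80 spots with the largest share of Krt5, Krt14, Krt1 and Krt10, 16 were members in the section labelled unwounded and 22 at day 4.

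The genes that stood highest in members against the other spots of their own section describe what else these spots hold. Spots were chosen on these counts, so no test applies. In the section labelled unwounded 532 of 13253 genes were higher in members (4.01%) and 2579 lower (19.5%). At day 4 these were 296 of 12996 (2.28%) and 2293 (17.6%). With the rule genes left out, 6 genes were among the 15 highest in both sections. They were Gsta4 (a glutathione transferase), Stfa1 and Csta3 (cysteine protease inhibitors of the stefin A family), Sprr1b and Sprr2d (small proline-rich cross-linked envelope proteins) and Lce3b (a late cornified envelope protein). Stfa1 stood at 2422 CPM in members and 596 CPM in the other spots of the section labelled unwounded, and at 959.7 and 166 CPM at day 4. Gsta4 stood at 214 and 42.1 CPM, and at 127 and 18.3 at day 4. Lce3b went from 74.2 CPM outside to 302 in members, and at day 4 from 6.50 to 76.9. Reads of the stefin A, Sprr2 and Lce3 families can fit several near-identical copies, so the values of single copies are uncertain.

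Each section also had leading genes of its own. In the section labelled unwounded the 15 held S100a8 and S100a9 (the calprotectin subunits), Uox (urate oxidase), the gap junction genes Gjb2 and Gjb6, Areg (amphiregulin, a ligand of the EGF receptor), Sprr2e, Sprr2h and Sprr2i. At day 4 they held Lce3a, Lce3d, Lce3e, Lce3f, Rptn (repetin), Stfa2, Cstdc5, Sprr2a3 and Mmp13 (collagenase 3). Of the 15 genes, 8 in the first section and 9 in the second lie in the epidermal differentiation complex on chromosome 3, counted here from S100a1 to S100a11 (chr3:90511034-93520496). That interval holds 50 of the 10042 located genes with at least 100 UMIs in the first section (0.498%) and 46 of 9496 in the second (0.484%). The median log2 ratio of members over other spots in it was 0.74 in the section labelled unwounded, with 33 of 50 genes higher and 3 lower. At day 4 the median was 0.06, with 17 of 46 higher and 5 lower. These counts are against all other spots of a section. The 18 cornified envelope genes summed to 27733 CPM in members and 27683 in the other epidermal spots of the section labelled unwounded. At day 4 they summed to 27227 and 29899 CPM. Small proline-rich genes summed to 6571 against 3171 CPM, and to 3858 against 1729 at day 4. Stefin A genes summed to 7772 against 4772 CPM, and to 6414 against 3888 at day 4. The stefin A cluster on chromosome 16 gave 2 and 4 of the 15 genes.

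Promoters are printed for S100a8 and S100a9, which were among the genes that differed most between the sections, and for Sprr1b and Sprr2d, which led the members in both. All 4 lie in this complex. Each sequence runs from 250 bases before to 50 bases after the start of the gene in RefSeq (GRCm38.p6), 5′ to 3′ on the gene's strand. Capitals mark the TATA motif (TATAAA, on the gene's strand) and the AP-1 motif (TGANTCA, on either strand).
S100a8, chr3:90668821-90669120, plus strand: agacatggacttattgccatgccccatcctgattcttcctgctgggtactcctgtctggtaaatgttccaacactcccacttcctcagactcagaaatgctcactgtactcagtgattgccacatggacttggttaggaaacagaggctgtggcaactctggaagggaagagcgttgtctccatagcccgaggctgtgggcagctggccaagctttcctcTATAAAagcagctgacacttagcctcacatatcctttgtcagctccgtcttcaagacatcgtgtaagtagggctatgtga
S100a9, chr3:90695672-90695971, minus strand: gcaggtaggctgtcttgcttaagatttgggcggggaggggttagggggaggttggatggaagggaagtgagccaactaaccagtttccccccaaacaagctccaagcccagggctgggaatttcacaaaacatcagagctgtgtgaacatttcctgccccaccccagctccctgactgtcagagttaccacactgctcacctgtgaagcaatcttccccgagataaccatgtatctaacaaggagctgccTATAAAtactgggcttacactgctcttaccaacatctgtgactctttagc
Sprr1b, chr3:92438730-92439029, minus strand: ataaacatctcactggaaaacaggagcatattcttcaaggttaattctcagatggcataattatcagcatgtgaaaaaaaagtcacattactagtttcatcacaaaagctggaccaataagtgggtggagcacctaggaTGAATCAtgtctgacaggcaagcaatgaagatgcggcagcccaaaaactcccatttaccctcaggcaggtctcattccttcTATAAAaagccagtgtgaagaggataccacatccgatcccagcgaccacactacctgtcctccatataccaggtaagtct
Sprr2d, chr3:92338890-92339189, plus strand: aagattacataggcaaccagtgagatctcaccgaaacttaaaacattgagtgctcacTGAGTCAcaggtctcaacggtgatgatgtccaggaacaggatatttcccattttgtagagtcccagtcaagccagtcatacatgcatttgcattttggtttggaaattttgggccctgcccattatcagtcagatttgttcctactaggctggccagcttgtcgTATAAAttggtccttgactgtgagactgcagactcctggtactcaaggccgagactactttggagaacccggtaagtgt
The TATA motif begins 30 bases before the annotated start in S100a8 and Sprr1b and 29 in Sprr2d, and at the start itself in S100a9. The AP-1 motif is found once in Sprr1b, 111 bases before the start, and once in Sprr2d, 193 bases before it, and is not in these windows of S100a8 and S100a9. Of 32851 RefSeq promoter windows of this length, 7.81% hold TGANTCA and 8.32% hold TATAAA.

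Between the sections, the members' transcripts of inflammation stood far lower at day 4 than in the section labelled unwounded, while the differentiation keratins Krt1 and Krt10 and the basal keratin Krt15 stood higher at day 4. The Krt1 difference rested in part on the tissue piece. Krt14 (16380.5 and 18249 CPM) and Krt5 (5103 and 5481 CPM), the main basal keratins, were within the limits. Of 9662 genes measured, 277 were higher at day 4 (2.87%) and 743 lower (7.69%). The list counts below stand beside these shares of all genes. The other epidermal spots gave nearly the same shares, with 289 of 9788 higher (2.95%) and 743 lower (7.59%). The median log2 ratio over the measured genes was -0.04 in the members. For bulk sums of spots such as these, fewer cells of a type and less RNA per cell cannot be told apart.

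Large differences were found in the antimicrobial and acute-phase genes. Of 13 measured, 11 were lower at day 4 and 1 higher (Wfdc12, 312 to 556 CPM), where 7.69% of all genes were lower and 2.87% higher, with a median log2 ratio of -1.53 (10 CPM added to both sides, as in all list medians). S100a8 (chr3:90669071-90670034) stood at 10009 CPM (9851 to 10168) in the section labelled unwounded and 191 CPM (168 to 216) at day 4, a log2 ratio of -5.71 (-5.90 to -5.53). Single members of the first section gave 69.6 CPM in the lowest spot, 5855 in the median and 42897 in the highest, and those of day 4 gave 0 CPM in the lowest spot, 86.8 in the median and 2424 in the highest. The ranges overlap, but the median of the first section is above the highest day 4 spot. S100a9 (chr3:90692630-90695721) went from 8365 CPM (8221 to 8510.5) to 214 CPM (189.8 to 241), with a log2 ratio of -5.29 (-5.46 to -5.11). Their UMIs were concentrated. The 10 spots with most held 58.6% of the S100a8 and S100a9 UMIs of the members in the first section and 57.5% at day 4. Saa3, an acute-phase protein, went from 321 to 6.21 CPM, Lcn2 (lipocalin 2, which binds bacterial siderophores) from 101 to 7.76, Chil1 from 552 to 128, and Slpi (a leukocyte protease inhibitor) from 139.9 to 37.3 CPM.

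Calprotectin is made by neutrophils as well as by keratinocytes, so neutrophil transcripts are given beside it. Ly6g and Mmp8, which define neutrophils, had no UMI in the members of either section. A list of 8 neutrophil markers that leaves out genes also made by keratinocytes summed to 189 CPM in the members of the section labelled unwounded and to 23.3 CPM at day 4, and to 239 and 29.2 CPM in the other spots. The other epidermal spots gave 93.9 CPM (79.5 to 110.2) and 12.6 CPM, so in the section labelled unwounded the members lay below the other spots as a whole and above the other epidermal spots. Single members ranged from 0% to 0.718% of their UMIs in the section labelled unwounded and from 0% to 0.0588% at day 4. All 5 measured markers were lower at day 4, for example Clec4d (69.6 to 8.54 CPM) and Cxcr2 (40.3 to 8.54 CPM). In the section labelled unwounded Clec4d stood at 106 CPM on the larger piece of tissue and at 8.88 CPM, on 5 UMIs, on the smaller. Cxcr2 stood at 32.9 and 53.3 CPM. With the smaller piece alone standing for that section only 1 marker was measured, and it was lower. With members in the top 10% of their section for these markers left out, which kept 68 members of the section labelled unwounded and 73 at day 4, the log2 ratio of S100a8 (10 CPM added) was -5.80, against -5.64 over all members. The part of neutrophils in the calprotectin difference was not tested.

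**Figure D2:**
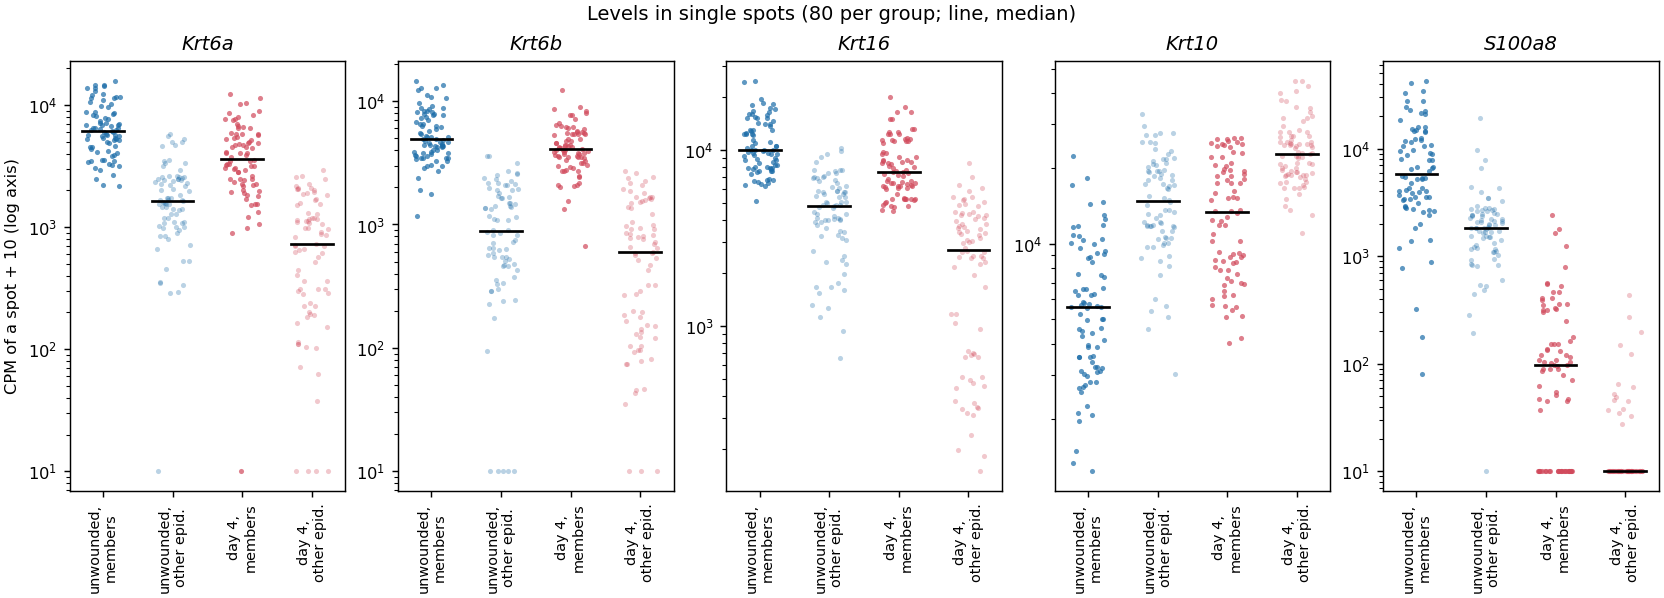
Level of Krt6a, Krt6b, Krt16, Krt10 and S100a8 in single spots (vertical log axis, CPM of the spot plus 10), for the 80 members and the 80 other epidermal spots of each section, with a line at the median. S100a8 in members has a median of 5855 CPM in the section labelled unwounded and 86.8 CPM at day 4, while Krt10 has medians of 5565 and 13371 CPM.

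Ligands of the EGF receptor, which drive keratinocyte migration and growth, were lower as a group. Of 8 measured genes 5 were lower at day 4 and none higher, with a median log2 ratio of -1.35, where 7.69% of all genes were lower. Hbegf went from 229.7 CPM (206 to 255) to 27.2 CPM (18.9 to 37.8), Areg from 171 CPM (151 to 193) to 21.0 CPM (13.8 to 30.5) and Epgn from 128 CPM (111 to 147) to 12.4 CPM (7.10 to 20.2). Tgfa (132 to 40.4) and Ereg (198 to 80.8 CPM) differed less. The receptor Egfr itself stood at 65.7 and 46.6 CPM, within the limits.

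Cytokines followed. Of 13 measured genes of the interleukin-1 family 7 were lower at day 4, led by Il1b, which stood at 277 CPM (251 to 305) in the section labelled unwounded and 24.1 CPM (16.4 to 34.2) at day 4. The decoy receptor Il1r2 (76.1 to 25.6 CPM) and the antagonist Il1rn (330.5 to 134 CPM) were lower with it. Il1f6 and Il1f9, which encode the keratinocyte cytokines IL-36 alpha and gamma, stood at 455 and 241 CPM and at 342 and 217 CPM, both lower at day 4. Of 13 measured chemokine genes 11 were lower and 1 higher, the latter Ccl27a, a keratinocyte chemokine for skin-homing T cells (44.9 to 104 CPM). Cxcl2 went from 219 to 18.6 CPM and Ccl20 from 69.6 to 3.88 CPM. Il19, an interleukin-20 family cytokine, had 63 UMIs in the first section and none at day 4, which is at least 17.6-fold lower against a floor of 3 UMIs over the members.

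Transcription factors induced by growth factors and cytokines were lower too. Of 12 AP-1 and immediate early genes 10 were lower at day 4, with a median log2 ratio of -0.85, where 7.69% of all genes were lower. Fosl1, an AP-1 subunit, went from 82.6 to 17.9 CPM, Fos from 333 to 106, Junb from 638 to 301 and Ier3 from 431 to 87.0. Of 9 measured STAT3 pathway genes 5 were lower, among them the feedback inhibitor Socs3 (113 to 21.7 CPM), Bcl3 (108 to 17.9), the oncostatin M receptor Osmr (63.1 to 26.4) and Stat3 itself (282 to 167).

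**Figure D3:**
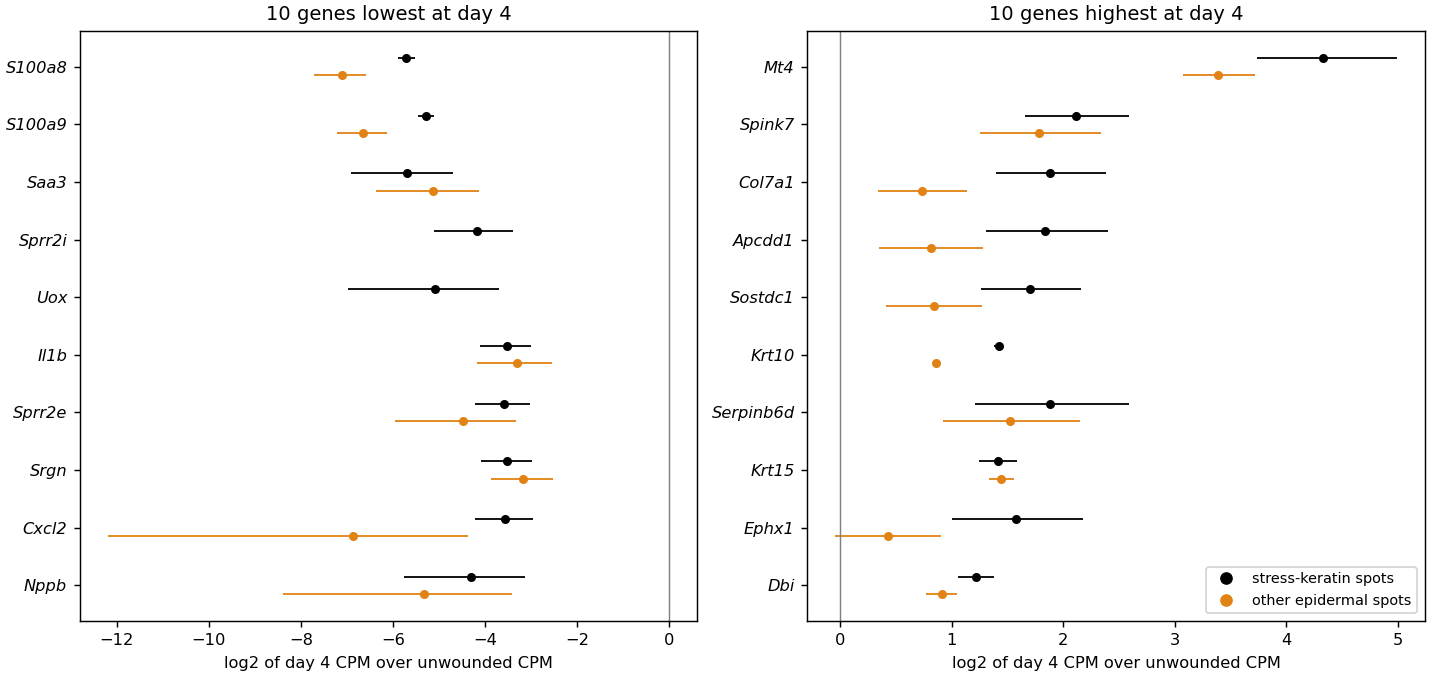
Log2 ratio of day 4 CPM over CPM in the section labelled unwounded (horizontal axis) for the 10 lowest and 10 highest genes with at least 100 UMIs, in the stress-keratin spots (black) and the other epidermal spots (orange), with 95% counting intervals. A point is left out where a group had no UMI in a section. S100a8 stands at -5.71 in members and -7.11 in the other epidermal spots, and Mt4 at 4.33 and 3.39.

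The envelope and protease genes of the outer epidermis split. Of 11 measured small proline-rich genes 6 were lower at day 4 and none higher, where 7.69% of all genes were lower. Sprr2i (183 to 10.1 CPM) and Sprr2e (243 to 20.2 CPM) differed most, whereas Sprr1b (2290.1 and 1791 CPM) and Sprr2d (724 and 541 CPM), the leading members of the family in both sections, stayed within the limits. Of 7 measured stefin A genes 2 were lower, with Stfa1 from 2422 to 959.7 CPM. Cstdc5, another gene of that cluster, stood at 10297 and 12940 CPM. Of 11 kallikreins, serine proteases that act in shedding of the outer layer, 6 were lower, with Klk10 from 638 to 255 CPM. Of 18 cornified envelope genes 3 were lower (Cnfn, Tgm1 and Tgm3) and 1 higher (Flg2, 168 to 325 CPM). Loricrin (Lor) stood at 6177 and 7288 CPM, and filaggrin (Flg) at 5211 and 4357 CPM, both within the limits.

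Junction, matrix and migration genes held a few large differences. Gjb2 (connexin 26) went from 1211 to 452 CPM and Gjb6 (connexin 30) from 299 to 110.3, while Gjb5 went the other way, from 59.2 to 110.3. Of the desmosome genes, the cadherin Dsg3 was lower (236 to 102 CPM) and the plaque protein Dsp higher (1512 to 2439 CPM). Of 11 measured wound-edge proteases and inhibitors 6 were lower, among them Serpinb2 (an inhibitor of urokinase, 603 to 169 CPM), the urokinase receptor Plaur (41.0 to 11.6) and Timp1 (70.9 to 32.6). The collagenase Mmp13 stood at 76.1 and 111 CPM and the gelatinase Mmp9 at 46.8 and 51.2, both within the limits. Tnc (tenascin C) went from 224 to 63.7 CPM and Itga5, a fibronectin receptor subunit, from 33.2 to 10.1. Lamb3, a chain of the basement membrane laminin 332, stood higher at day 4, from 66.4 to 109 CPM. It was not among the genes, given below, that held across parts, patches and tissue pieces. Of 13 laminins and integrins of keratinocyte migration 1 was higher and 3 were lower, with a median log2 ratio of -0.32. Of all genes, 2.87% were higher and 7.69% lower.

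Genes that stood higher at day 4 included some of suprabasal and basal keratinocytes and of basement membrane. Krt10 (chr11:99385254-99397449), the early differentiation keratin, went from 5641 CPM (5522 to 5761) to 15096 CPM (14884 to 15309), a log2 ratio of 1.42 (1.38 to 1.46). Its spot levels were 1226 CPM in the lowest spot, 5565 in the median and 22374 in the highest in the section labelled unwounded, and 3999 CPM in the lowest spot, 13371 in the median and 26471 in the highest at day 4, with overlapping ranges. Krt1, its partner, went from 10953 to 20237 CPM and Krt15, a keratin of basal cells, from 271 to 723 CPM. Krt1 stood at 8600 CPM on the larger and 15171 on the smaller piece of the section labelled unwounded. At day 4 it stood at 22861 and 16199 CPM, so the smaller pieces of both sections lay close together. Mt4, a metallothionein of squamous epithelium, had the largest ratio of the named genes, from 15.6 CPM (10.0 to 23.2) on 24 UMIs to 314 CPM (284 to 346) on 404 UMIs, a log2 ratio of 4.33 (3.73 to 4.99). Spink7, a protease inhibitor, went from 33.2 to 144 CPM, Col7a1 (the collagen of anchoring fibrils) from 31.2 to 115, and Sostdc1 and Apcdd1, inhibitors of Wnt signalling, from 38.4 to 125 and from 25.4 to 90.8. Dbi, an acyl-CoA binding protein, went from 304 to 706 CPM. Of 14 cell division genes only Mki67, the proliferation marker, was counted as higher (93.0 to 157 CPM), and none as lower. The cyclin Ccnd1 went from 46.2 to 87.7 CPM.

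The genes with the lowest and highest ratios also include some outside the lists. Among the 15 lowest were Uox (105 to 3.11 CPM), Srgn (serglycin, the proteoglycan core of secretory granules, 275 to 24.1), Nppb (a natriuretic peptide, 91.7 to 4.66), Arc (103 to 7.76) and the interferon-inducible Ifitm1 (64.4 to 2.33). Among the 15 highest were Serpinb6d (16.3 to 59.8 CPM), Ephx1 (an epoxide hydrolase, 23.4 to 69.9), Serpina12 (89.8 to 203) and Lmo1 (21.5 to 56.7). Mt4 was higher at day 4 in all other spots too, at 28.1 and 341 CPM.

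Other epidermal lists differed in part, where 7.69% of all genes were lower and 2.87% higher. Counts of 1 or 2 genes in lists this short lie close to those shares and are description only. Of 12 basal keratinocyte markers 2 were higher (Krt15 and Lamb3) and 1 lower (the cadherin Cdh3), and of 11 spinous and granular markers 2 were higher (Krt1 and Krt10) and 1 lower (Lypd3). In the other epidermal spots 6 of 12 of the latter were higher and none lower. Krt1 and Krt10 belong to that list and were used to choose those spots. Of 17 barrier lipid genes 6 were lower and none higher, among them the lipoxygenases Alox8 (56.6 to 3.88 CPM), Aloxe3 (124 to 62.9) and Alox12b (202 to 115) and the glucosylceramide synthase Ugcg (276 to 130.4). Of 12 oxidative stress genes 2 were lower, Gsta4 and the cystine transporter Slc7a11 (63.8 to 24.8 CPM). Of 14 growth regulators Grhl3 and Cdkn1a were lower and Ccnd1 higher. Of 9 heat shock genes Hspa1b was higher (209 to 359.5 CPM) and the endoplasmic reticulum chaperone Hspa5 lower (512 to 304). No interferon-stimulated gene of 6 measured was counted in either direction, but the day 4 pieces differed. With the smaller day 4 piece alone 3 of 6 were higher, and with the larger alone 1 of 5 was lower. Of all genes, 4.36% were higher with the smaller alone and 9.08% lower with the larger alone. Bst2 stood at 67.0 and 10.2 CPM on these pieces.

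**Figure D4:**
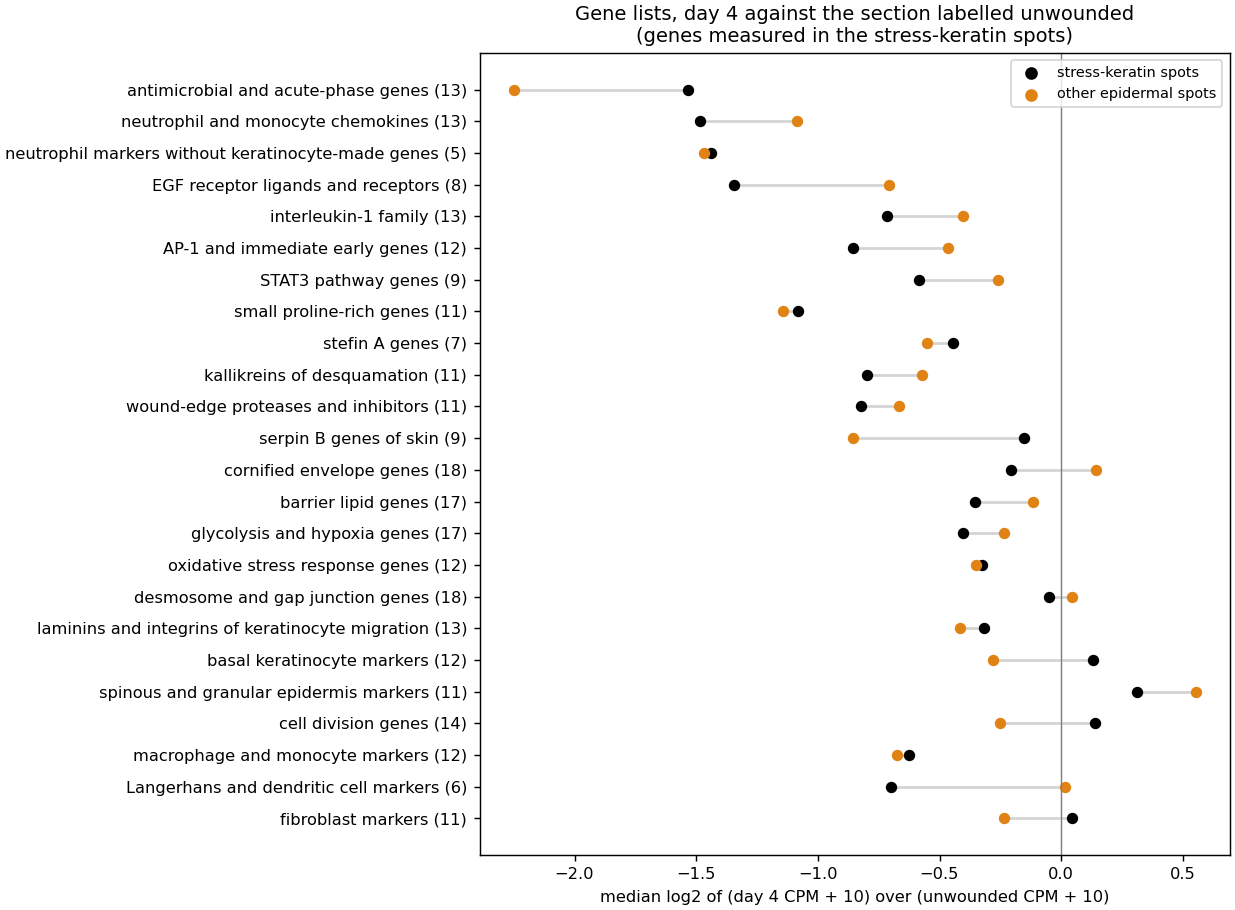
Median log2 ratio of day 4 over the section labelled unwounded (horizontal axis, 10 CPM added to both sides) for 24 gene lists, in the stress-keratin spots (black) and in the other epidermal spots (orange). The number of genes measured in the stress-keratin spots is given with each list. The antimicrobial and acute-phase genes stand at -1.53 and -2.25, and the cell division genes at 0.14 and -0.25.

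The genes with the largest differences also differed in the other epidermal spots of the sections. S100a8 went from 2317 to 16.7 CPM there, Il1b from 88.9 to 8.97, Hbegf from 114 to 25.7 and Krt10 from 15106 to 27464. Those spots were chosen partly on Krt10, so its levels there only describe the selection. The difference between both log2 ratios, members minus other epidermal spots, was taken gene by gene with an approximate 95% counting interval, and counted where it passed 1.5-fold and the interval left out 0. Of 9339 genes, 567 were counted as higher in members (6.07%) and 345 as lower (3.69%). Against all other spots, 460 of 9662 were higher (4.76%) and 548 lower (5.67%). S100a8 and S100a9 had differences of 1.38 (0.82 to 1.94) and 1.33 (0.79 to 1.88), so the members' ratio was less negative than that of the other epidermal spots. 7 of 14 cell division genes were counted as higher in members by this measure and none as lower, with a median difference of 0.61. The list's median log2 ratio was 0.14 in members and -0.25 in the other epidermal spots. Mki67, for example, went from 108 to 105 CPM in the latter. Of 18 cornified envelope genes 2 were counted as higher by this measure, near the 6.07% of all genes. They were Rptn (0.99, 0.84 to 1.14) and Lce3c (0.87, 0.63 to 1.11). Lce3d of the same family stood at 145 and 149.9 CPM in members but at 113 and 17.3 in the other epidermal spots (difference 2.73, 2.10 to 3.35). Among 9 serpin B genes, protease inhibitors of the epidermis, 3 were counted as higher and none as lower, with Serpinb12 at 106 and 187 against 151 and 78.9 CPM (difference 1.75, 1.33 to 2.17).

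In the other direction stood some glycolysis and hypoxia genes. By the same measure 4 of 17 had a lower ratio in members and 1 a higher, where 3.69% and 6.07% of all genes did. Ndrg1 had a difference of -1.14 (-1.67 to -0.61), the lactate transporter Slc16a3 of -1.48 (-2.36 to -0.60) and hexokinase Hk2 of -0.71 (-1.32 to -0.11), while Gapdh had one of 0.95 (0.76 to 1.14). Hbegf (-0.93, -1.62 to -0.24) and Tgfa (-1.05, -1.63 to -0.46) were likewise lower in members by this measure, as were the immediate early genes Arc (-2.20, -3.29 to -1.11) and Fosb (-2.27, -3.26 to -1.28). The other epidermal spots lay mostly on the larger tissue pieces (79 of 80 in the section labelled unwounded and 72 of 80 at day 4), unlike the members, and piece and kind of spot cannot be told apart in these differences.

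The members were not uniform within a section, and some of the differences above rest on 1 piece of tissue. On the larger piece of the section labelled unwounded, Hbegf stood at 353 CPM (316 to 393), Areg at 264 CPM (232 to 299), Il1b at 415 CPM (375 to 458) and Cxcl2 at 336 CPM (300.1 to 375). On the smaller piece the same genes stood at 24.9, 12.4, 49.7 and 33.7 CPM, each no higher than in the members of the smaller day 4 piece (37.5, 25.6, 53.2 and 47.3 CPM). Fos (479 and 78.1 CPM), Egr1 (314 and 49.7 CPM) and Arc (154 CPM, and 10.7 CPM on 6 UMIs) split the same way. A single member of the larger piece, with 5291 UMIs, gave 13230 CPM of Il1b, 13419 of Cxcl2 and 5292 of Mmp13. The levels of these genes on that piece were thus uneven between spots. With only the members of the smaller piece standing for the section labelled unwounded, fewer genes were counted in all, 323 of 8479 lower at day 4 (3.81%) and 230 higher (2.71%). Of 12 AP-1 and immediate early genes 2 were then lower and 1 higher, and of 13 interleukin-1 family genes none was lower. Of the 5 EGF receptor ligands Epgn and Tgfa stayed lower, while Ereg (92.3 CPM on that piece), Hbegf and Areg did not. Of 9 wound-edge proteases and inhibitors 1 was lower and 2 were higher, and with the smaller day 4 piece alone 2 of 10 were lower and 2 higher. The larger day 4 piece alone gave 8 of 9 lower. Of all genes, the smaller day 4 piece alone gave 6.05% lower and 4.36% higher, and the larger 9.08% and 2.43%. S100a8 was high on both pieces, with 9602 CPM (9406 to 9802) on the larger and 10936 CPM (10664 to 11212) on the smaller. On the smaller piece it came almost wholly from the patch of 12 spots (15447 CPM), while the other 3 patches there, of 2 or 3 spots each, stood at 173, 1192 and 953 CPM. Stfa1 was high on both, at 1798 and 3509.7 CPM, against 573 and 1556 CPM on the day 4 pieces. Of 11 antimicrobial and acute-phase genes measured with the smaller piece alone, 7 were lower.

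The day 4 section split as well. Mmp13 stood at 6.40 CPM (2.08 to 14.9) in the members of the larger day 4 piece and 272 CPM (229 to 321) in those of the smaller, and Mmp9 at 3.84 CPM (0.792 to 11.2) and 124 CPM (95.4 to 159). In the section labelled unwounded Mmp13 stood at 123 CPM (102 to 148) and 1.78 CPM (0.0449 to 9.89). The similar sums of Mmp13 in both sections thus each come mainly from 1 piece. Il1b, Cxcl2 and S100a8 of the day 4 members were also higher on the smaller piece (369 against 75.6 CPM for S100a8), and Krt10 was higher on the larger (18850.4 against 9316 CPM). Col1a1, which stood higher at day 4 over all members (540.0 to 1033 CPM), came mainly from the smaller piece, since its log2 ratio (10 CPM added) was 0.08 with the larger day 4 piece alone.

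**Figure D5:**
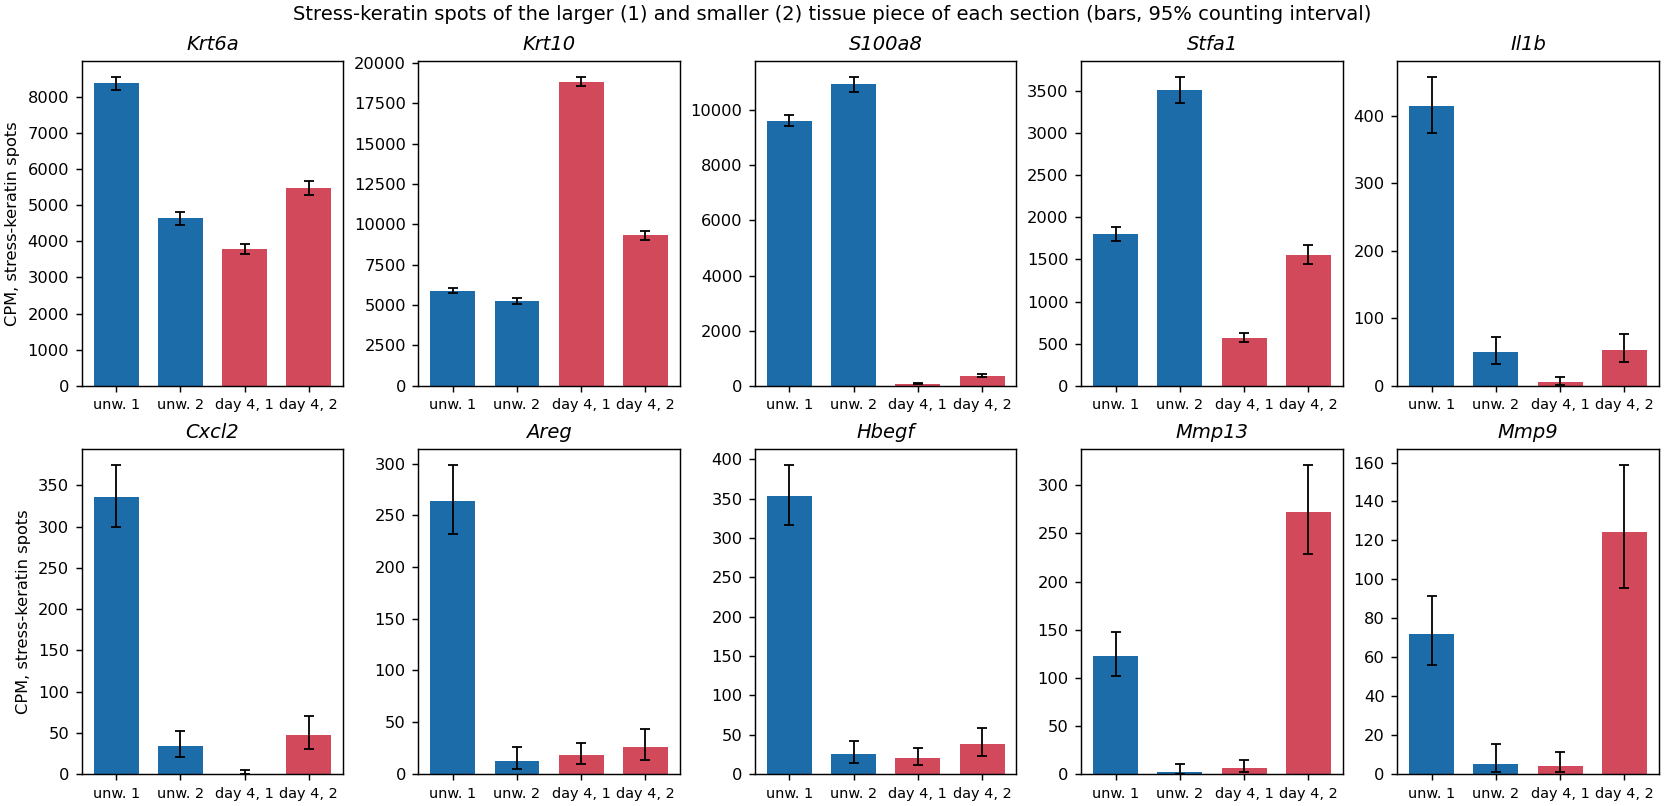
Level in the stress-keratin spots (vertical axis, CPM, bars from 0 with 95% counting intervals) on the larger (1) and smaller (2) tissue piece of the section labelled unwounded (blue) and of the day 4 section (red), for 10 genes. S100a8 is high on both pieces of the section labelled unwounded, whereas Il1b, Cxcl2, Areg and Hbegf are high on the larger one, and Mmp13 and Mmp9 on the larger piece of that section and the smaller piece at day 4.

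Between patches of at least 8 members, S100a8 in the section labelled unwounded ran from 4697 to 30543 CPM, and Areg from 10.2 to 735 CPM, the latter in 1 patch of 11 spots. Mmp13 was highest in the patch of 9 spots (359 CPM), where Il1b (798 CPM) and Mmp9 (226 CPM) were also highest. At day 4 Mmp13 and Mmp9 peaked in the patch of 13 spots (496 and 196 CPM), where S100a8 also peaked (556 CPM). A patch of 27 spots on the larger day 4 piece had the most Krt10 (23636 CPM) and the least Krt6a of these patches (2705 CPM). Within sections, spots with more Krt6a had less Krt10, with Spearman's rho of -0.30 over the 80 members of the section labelled unwounded and -0.68 over those of day 4. Krt6a and Krt14 ran together, with 0.54 and 0.60. Krt6a and Krt16, both used in the rule, gave only 0.13 and 0.27. These spots share a library and neighbouring tissue, and all 3 rule genes were used to choose them, so the correlations describe the members and no more.

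Markers of other cells were mostly lower in members than in the other spots, as for fibroblasts (12 of 12 measured markers lower in both sections) and macrophages (14 of 14 and 13 of 14). Of all genes, 19.5% and 17.6% were lower. Between the sections, 6 of 12 macrophage and monocyte markers were lower at day 4 in the members and none higher, with the mannose receptor Mrc1 from 85.2 to 29.5 CPM, Cd163 from 31.2 to 1.55 and C1qb from 78.1 to 31.1. The other epidermal spots also had 6 of 12 lower. Of 6 measured Langerhans and dendritic cell markers 5 were lower, among them the antigen presentation genes Cd74 (324 to 189 CPM) and H2-Ab1 (221 to 128). This rested in part on the piece. With the smaller piece alone standing for the section labelled unwounded none of 5 was lower, and with its larger piece 5 of 5. The smaller day 4 piece alone gave 3 of 5 lower and the larger 5 of 6. Of all genes, 3.81% were lower with the smaller piece of the section labelled unwounded alone and 9.46% with its larger. The smaller and larger day 4 pieces alone gave 6.05% and 9.08%. In the other epidermal spots Cd74 stood at 308 and 312 CPM, and the difference was -0.79 (-1.08 to -0.51). Cd207, which defines Langerhans cells, gave 13 and 10 UMIs in the members. Haemoglobin genes were uneven, and in the section labelled unwounded they did not follow the other markers. Of 5 erythrocyte markers 4 were higher in members than in the other spots of the section labelled unwounded (summed 1032 against 313 CPM), and 3 were lower at day 4 (926 against 1453 CPM). Hbb-bt stood at 3.18 CPM on the larger and 280.5 on the smaller piece of the section labelled unwounded, and all 4 measured genes had a lower ratio in members than in the other epidermal spots. Their part in the other results was not tested.

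The series title names Gas6 and its receptor Axl. Gas6 is a secreted ligand of the TAM receptor tyrosine kinases Tyro3, Axl and Mertk, which dampen inflammation and aid uptake of dead cells, and Pros1 encodes another ligand. In the members Gas6 stood at 78.1 CPM (64.7 to 93.4) in the section labelled unwounded and 66.0 CPM (52.7 to 81.6) at day 4, below the other spots (192 and 238 CPM). Its log2 ratio between the sections was -0.24 (-0.66 to 0.17) in members, against 0.45 (0.15 to 0.75) in the other epidermal spots, a difference of -0.69 (-1.18 to -0.19). Axl stood at 64.4 CPM (52.3 to 78.4) and 56.7 CPM (44.4 to 71.3), near the other spots (78.4 and 62.1 CPM), with a log2 ratio of -0.18 (-0.64 to 0.27). Tyro3 went from 67.7 to 48.9 CPM, within the limits, and Mertk gave 0 and 2 UMIs. Pros1 was the 1 gene of the 4 measured that was counted as lower at day 4, from 54.0 CPM (43.0 to 66.9) to 24.8 CPM (17.0 to 35.1). With the larger piece of the section labelled unwounded alone or the smaller day 4 piece alone it was not counted as lower, with log2 ratios (10 CPM added) of -0.70 and -0.69.

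Across all this, 177 genes of the lists and of the 30 named extremes were counted as different between the sections, 36 higher and 141 lower at day 4. With any 1 of 4 parts of a section or any 1 patch of at least 8 members left out, and with any 1 tissue piece alone, 50 of them stayed past 1.5-fold in the same direction, 14 higher and 36 lower. Those higher include Krt10, Krt15, Mt4, Spink7, Col7a1, Sostdc1, Apcdd1 and Dbi. Those lower include S100a8, S100a9, Saa3, Lcn2, Chil1, Defb14, Ccl20, Epgn, Tgfa, Serpinb2, Stfa1, Sprr2b, Sprr2e, Sprr2i, Tnc, Ndrg1 and Slc16a3. Of the sex-linked genes Xist was among those higher, and Ddx3y and Eif2s3y among those lower. The 30 named extremes had been ranked only among genes that kept their direction with each part left out. Leaving out a part could therefore not reverse them.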

How the data were processed

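The authors deposited filtered Visium matrices of UMI counts per gene and spot, and per the file headers Space Ranger 1.3.1 produced them, on mm10 per the submitters' processing notes, which also list Seurat. For the aligner settings and annotation release, the sources used here give nothing. Counts were used as deposited. UMIs were summed over the spots of each group, with 38 gene symbols shared by more than 1 gene (the first was used), and no doublet caller was run on spots. Exact Poisson and binomial 95% intervals, ratios and medians were computed with Python 3.11.15, numpy 2.4.6, scipy 1.17.1 and pandas 2.3.3, patches with networkx 3.6.1, and an alternative scaling with edgeR 4.0.16 (TMM factors only) in R 4.3.3. Figures were drawn with matplotlib 3.10.9. The counting steps were tested on simulated data. Genes and promoters were named from RefSeq tables of GRCm38.p6.

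The members and the 47 gene lists (515 entries, of which 510 matched a gene in the files) were chosen with earlier results of these data known. Named genes were the rule genes and the Gas6 and Axl group, up to 4 members of each list with the largest ratio, the most abundant cell type markers, and, above 100 UMIs, the 15 genes at the top and the 15 at the bottom of day 4 against the section labelled unwounded and the 15 at the top of members against other spots, leaving out mitochondrial, haemoglobin, sex-linked and predicted genes. The ranking of day 4 against the section labelled unwounded kept only genes whose direction held with each 1 of 4 parts left out. These were 2612 of 4396 genes. Other genes named were chosen after their values were seen. With 1 section in each group there was no test. Alternatives were 40 or 160 spots, single keratins as score, other UMI limits and folds, other scalings, and leaving out each of 4 parts of a section. Leaving out patches, single tissue pieces, and leaving out the 25% of members richest in S100a8 and S100a9 were chosen after seeing the data.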

Additional observations from a re-analysis of the deposited data

How the results depend on the processing

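No paired analysis was possible because the labels carry no replicate numbers and each group is 1 section. Section, animal, sex and wound cannot be told apart, intervals cover counting error only, and a gene under about 20 UMIs over both sums was not compared. Over 36 alternatives, the 177 genes counted in the members and Krt6b gave 6408 values, of which 5649 kept their direction and call, 714 kept the direction only, 27 reversed and 18, all of Krt6b, lay outside its counting interval. The settings with 1 CPM added and with at least 1 UMI could not change a call, and each kept all 178. At 100 UMIs or more, 38 genes lost their call only by falling below the minimum. Values below are log2 ratios with 10 CPM added, and the cause was not tested.

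The count of genes higher at day 4 (277) was 430 with 160 spots per section and 126 at 2-fold. The count of genes lower (743) was 430 at 2-fold and 323 with the smaller piece alone standing for the section labelled unwounded. Members against the other epidermal spots in place of all other spots gave 273 higher and 159 lower genes in the section labelled unwounded and 214 lower at day 4, and the difference of ratios gave 345 lower in place of 548. The edge share at day 4 (45.0%) was 60% with 40 spots and 31.2% with 160 spots.

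With the smaller piece alone for the section labelled unwounded, reversed values were Alox12b 0.12, Areg 0.47, Ccl4 0.46, Cdkn1a 0.062, Egr1 1.07, Fos 0.39, Fosl1 0.56, Hbegf 0.093, Il24 0.39, Klk14 0.081, Plaur 0.20, Plin2 0.46, Sprr1a 0.38, Sprr2f 0.74, Stfa2l1 0.30 and Tgm3 0.39. Without part 2 of the 4 of that section Sprr1a was 0.078 and Sprr2f 0.52, and with 40 spots Stfa2l1 was 0.10. Col6a2 was -0.18 without part 1 of the day 4 section, -0.056 without its first patch and -0.20 with its larger piece alone. Hbb-bt was 0.036 with 160 spots, and, for the section labelled unwounded, 2.15 without part 3, 0.76 without patch 2, 2.56 with the larger piece alone and 0.39 without the 25% of members richest in S100a8 and S100a9. The interleukin-20 subfamily and receptors had a median of 0.44 at 100 UMIs or more, where 1 gene was left.

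With nothing added to the CPM, the log2 ratio of S100a8 ranged from -7.05 to -4.75 and Krt10 from 0.72 to 1.74 over the alternatives that change the sums, while Mmp13 ranged from -3.57 to 5.97.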
